A study of Mus musculus with 768 samples.

Results

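Laminins and integrins form a ligand and receptor pair at the surface of Schwann cells, and the genes of both families were followed across 4 states of single Schwann cells from mouse sciatic nerve at postnatal day 5. The genes were chosen by name, without use of their levels, as every gene of the count table with a symbol of a laminin alpha, beta or gamma chain or of an integrin alpha or beta chain. The choice gave 37 genes of 25700, made up of 11 laminin chains, 18 integrin alpha chains and 8 integrin beta chains. In the cells used, 27 of them had a read and 22 passed the filter on low counts and were tested.

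A laminin is a trimer of 1 alpha, 1 beta and 1 gamma chain that is secreted and assembles into the basal lamina, the sheet of matrix around each Schwann cell and its axons. The trimers of Schwann cells are known to share the chains of Lamb1 and Lamc1 and to differ in the alpha chain, which is that of Lama2 in the Lama2 trimer and that of Lama4 in the Lama4 trimer. An integrin is a dimer of 1 alpha and 1 beta chain that spans the membrane and ties the matrix to the actin cytoskeleton. In peripheral nerve, laminins and the beta1 integrins are known for their need in radial sorting, in which immature Schwann cells separate large axons from bundles, and loss of Lama2 gives a muscular dystrophy with a neuropathy.

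The cells came from P0Cre:ReYFP mice, on the C57bl/6J background, in which a Cre driven by the promoter of the myelin protein zero gene switches on a yellow fluorescent protein in Schwann cells. The same mice carried βAct-DsRed, a red reporter in all cells, and no untreated or wild-type group was compared at this age. Cells positive for the yellow protein were placed singly in the 384 wells of each of 2 plates, and their RNA was read by Smart-Seq2, a protocol that covers whole transcripts. Each plate held cells of its own male and female mouse, pooled. The plate is therefore the replicate (n = 2), and cells of a plate share their animals.

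Wells with at least 1500 detected genes outside the plate corners were used, which left 655 cells (325 on plate 1 and 330 on plate 2) with 3306 to 2495101 reads each. Their state was set from other genes of the same cells. A cell was called cycling with 5 or more reads in at least 3 of 10 cell cycle genes, which gave 32 and 25 cells on plates 1 and 2. Among the rest, cells under 10 CPM (counts scaled to the depth of the cell) of Ncmap, a gene of non-compact myelin, were called immature (106 and 122 cells). Cells above it were called intermediate under 30000 CPM of Pmp22, a compact myelin gene (79 and 70 cells), and myelinating from there on (108 and 113 cells). Near the 2 limits, 9 cells lay between 5 and 10 CPM of Ncmap and 3 between 10 and 20 CPM, while 38 lay between 20000 and 30000 CPM of Pmp22 and 35 between 30000 and 40000 CPM. The median depth of a cell was 418998.5 to 819461.5 reads by state and plate and was highest in myelinating cells. In plate columns 8 and 16 the median well, used or not, had fewer detected genes than in other columns (1907.5 against 3413). No doublet caller was run.

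The label was checked against marker genes. Of the 655 cells, 616 had 5 or more reads of Sox10, a transcription factor of the Schwann cell lineage. A total of 392 cells had 5 or more reads in at least 3 of 5 genes of Schwann cells (Sox10, S100b, Erbb3, Cdh19 and Foxd3). For a fibroblast list in which Col1a1 and Col1a2 held nearly all the reads, 25 cells did so. Those 2 genes alone do not meet the list, so each of the 25 cells also held another of its genes. Among all cells, Dcn had 5 or more reads in 19, Lum in 6, Pdgfra in 2 and Pi16 in 1. Whether the 25 cells were fibroblasts or doublets was not tested. No cell met the lists for endothelial cells, pericytes, immune cells, perineurial cells or platelets, which allows a share of up to 0.458%. Of these lists, the defining genes Pecam1, Cdh5, Emcn, Rgs5, Kcnj8, Abcc9, Ptprc, Aif1, Tyrobp, Pf4 and Ppbp had no read in these cells. Other genes of the lists were read, with 5 or more reads of Egfl7 (endothelial) in 193 cells, of Pdgfrb (pericyte) in 130, of Slc2a1 and Cldn1 (perineurial) in 108 and 55, of Csf1r (immune) in 39 and of Kdr (endothelial) in 22. From cycling through immature and intermediate to myelinating cells the mean was 7.502, 28.9, 46.1 and 108 scaled CPM for Egfl7 and 2.80, 6.83, 42.7 and 49.5 for Pdgfrb. The summed level of the 6 fibroblast genes moved with the state. It was 2531 and 2969 scaled CPM in cycling, 2536 and 2367 in immature, 1471 and 1389 in intermediate and 899 and 970 in myelinating cells of plates 1 and 2, and the part of these genes in the results on laminins and integrins was not tested.

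The stretch around the transcription start, from 250 bases before it to 50 after it, is shown for 4 genes. Itga4 and Itga1, integrin alpha chains, had lower levels in intermediate and myelinating than in cycling and immature cells. Lamb1, the main laminin beta chain, had 464 to 591 scaled CPM (scaled as described below) over the states and plates. Itgb1, the partner of most alpha chains, had 121 to 213, with its lowest values in intermediate cells. The sequences are those of RefSeq on GRCm38.p6, which held 23 of the 37 genes and 9 of the 15 that are described in full. No entry was found for Itga6, Lamc1, Lama4, Itgb3, Itgb4 and Itga7. They lie at chr2:79255176-79255475 (plus strand), chr13:115101915-115102214 (minus strand), chr12:31265043-31265342 (plus strand) and chr8:128685404-128685703 (plus strand), in the order printed.
Itga4: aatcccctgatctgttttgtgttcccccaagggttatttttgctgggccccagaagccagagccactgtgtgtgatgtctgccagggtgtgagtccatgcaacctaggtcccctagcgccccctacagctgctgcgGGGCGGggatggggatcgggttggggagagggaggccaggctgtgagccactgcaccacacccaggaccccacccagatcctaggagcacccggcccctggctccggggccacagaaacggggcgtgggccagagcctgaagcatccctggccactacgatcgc
Itga1: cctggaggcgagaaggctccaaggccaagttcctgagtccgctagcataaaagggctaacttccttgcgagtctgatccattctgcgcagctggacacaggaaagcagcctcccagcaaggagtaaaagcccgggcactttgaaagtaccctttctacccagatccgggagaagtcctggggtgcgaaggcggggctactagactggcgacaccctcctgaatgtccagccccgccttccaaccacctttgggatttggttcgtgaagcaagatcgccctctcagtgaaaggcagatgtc
Lamb1: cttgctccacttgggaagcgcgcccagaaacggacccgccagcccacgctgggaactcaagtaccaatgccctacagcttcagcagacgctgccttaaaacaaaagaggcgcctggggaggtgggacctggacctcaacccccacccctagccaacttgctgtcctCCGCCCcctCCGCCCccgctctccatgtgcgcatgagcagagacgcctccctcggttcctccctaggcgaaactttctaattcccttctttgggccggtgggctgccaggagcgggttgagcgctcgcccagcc
Itgb1: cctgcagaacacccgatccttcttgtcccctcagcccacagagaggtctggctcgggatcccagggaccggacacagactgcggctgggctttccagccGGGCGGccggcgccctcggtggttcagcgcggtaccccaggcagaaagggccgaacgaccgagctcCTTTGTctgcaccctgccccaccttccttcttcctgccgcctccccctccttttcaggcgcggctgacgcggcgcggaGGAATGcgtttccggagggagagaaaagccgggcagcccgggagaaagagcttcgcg
Capitals mark matches, on either strand, to 4 motifs. These were ACAAAG, the core read by SOX factors, TGANTCA, read by AP-1, GGAATG, read by TEAD factors, and the GC box GGGCGG. Itga4 held a GC box 114 bases before the start and Itga1 held none of the 4. Lamb1 had GC boxes 84 and 75 bases before the start. Itgb1 held a SOX core 85 bases, a TEAD core 7 bases and a GC box 151 bases before the start, counted from the first base of the match to the start. Among 32851 promoters of this length, 18.7% held the SOX core, 7.81% the AP-1 motif, 14.7% the TEAD core and 35.7% a GC box. A match in letters is not a measured binding site.

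Levels are given below for the reads of all cells of a state on a plate, summed to 8 libraries and expressed as CPM after TMM scaling (scaled CPM). Values are listed with plate 1 before plate 2. Levels of different genes are compared only per kilobase of exon. On that scale the mean over the 8 sums was highest for Lamb1 (53.4) and Itga6 (50.9). Among genes with a mean of at least 10 scaled CPM, the next were Itgb1 (39.1), Lamc1 (27.3), Lama2 (26.0), Lama4 (14.3) and Itgb8 (13.9). Then came Itgb3 (10.6), Itgb4 (7.78), Itga2 (4.35), Itga7 (4.30), Lamb2 (3.76), Itgav (1.78), Itga4 (1.29) and Itga1 (1.17). Itgb5 lay above Itgav per kilobase (2.55), but its mean was 9.07 scaled CPM. The 15 genes with a mean of at least 10 scaled CPM are described one by one. Together the 37 genes took 0.230% of the reads, and in the 8 corner wells 39 reads fell on them.

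**Figure D1:**
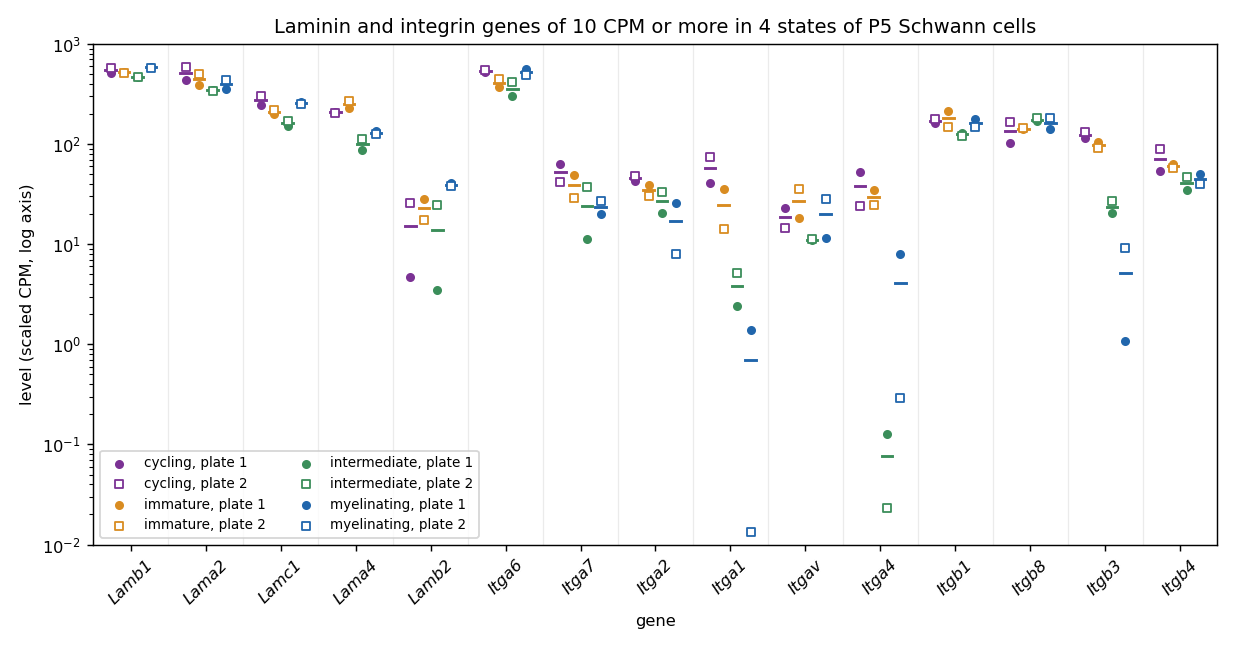
Level of the 15 laminin and integrin genes with a mean of at least 10 scaled CPM (vertical log axis) in 4 cell states. Filled circles are plate 1, open squares plate 2 and short lines the mean of both plates. Lamb1, Itga6, Lama2, Lamc1, Itgb1 and Itgb8 stay above 100 scaled CPM in every state on each plate. Itgb3, Itga1 and Itga4 lie lower in intermediate and myelinating cells than in cycling and immature cells.

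Among the laminins, only Lama4 passed the test in a comparison of states. Lama4 (chr10:38965515-39110188), the alpha chain of the Lama4 trimer, had 212 and 206 scaled CPM in cycling cells, 231 and 272 in immature, 86.6 and 113 in intermediate and 135 and 125 in myelinating cells. The intermediate and myelinating sums did not overlap the cycling and immature sums. Against immature cells (252 ± 29.1 scaled CPM, mean ± SD, n = 2) Lama4 fell by 1.34 on the log2 scale in intermediate cells (99.6 ± 18.4, SE 0.22, adjusted p = 0.0171, lower on 2 of 2 plates). It fell by 0.95 in myelinating cells (130 ± 6.97, SE 0.21, adjusted p = 0.0378, lower on 2 of 2 plates). The difference between myelinating and intermediate cells, 0.39 on the log2 scale with a 95% interval from -0.10 to 0.87, did not pass the test (adjusted p = 0.648).

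The share of cells with Lama4 was lowest in the intermediate state. Of immature cells 77.4% and 81.1% had a Lama4 read on plates 1 and 2, of intermediate cells 65.8% and 64.3%, of myelinating cells 80.6% and 73.5% and of cycling cells 87.5% and 92.0%. In cells with 5 or more reads of Lama4 the median level was 322 and 318 CPM of the cell in immature, 160 and 167 in intermediate and 125 and 136 in myelinating cells. Positive cells thus held less Lama4 in intermediate and in myelinating cells, whereas the share of positive cells in the myelinating state was close to that in the immature state. The call against immature cells held for intermediate cells in 15 of 15 alternatives, and for myelinating cells in 12 of 15, being lost with a Ncmap limit of 5 CPM (adjusted p = 0.0516) and with Pmp22 limits of 20000 CPM (adjusted p = 0.0827) and 40000 CPM (adjusted p = 0.0575), within a range of 0.000635 to 0.0827.

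The other chains of both trimers did not pass the test in any comparison. The intermediate sums of Lama2, Lamb1 and Lamc1 nevertheless lay below the sums of every other state, as did those of Lama4. Lama2 (chr10:26980036-27619758), the alpha chain of the Lama2 trimer, had 435 and 585 scaled CPM in cycling, 387 and 500 in immature, 349 and 343 in intermediate and 354 and 440 in myelinating cells. Its sums overlapped between immature and myelinating cells, and the log2 difference of these states was -0.16 with a 95% interval from -0.63 to 0.31. Lamb1 (chr12:31265234-31329644), the beta chain of both trimers, had 514 and 581 scaled CPM in cycling, 531 and 507 in immature, 471 and 464 in intermediate and 591 and 579 in myelinating cells. It was the most widely read of the 37 genes, with a read in 643 of 655 cells (98.2%). The log2 difference of Lamb1 between myelinating and intermediate cells was 0.32 (95% interval 0.004 to 0.64, adjusted p = 0.526). Lamc1 (chr1:153218922-153332786), the gamma chain of both, had 246 and 301 scaled CPM in cycling, 200 and 219 in immature, 152 and 170 in intermediate and 263 and 254 in myelinating cells. Lamc1 was lowest in intermediate cells on each plate, yet its log2 difference between myelinating and intermediate cells of 0.68 (95% interval 0.26 to 1.11) had an adjusted p of 0.204 with edgeR and 0.0111 with DESeq2.

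Lama2 had a log2 difference of -0.36 in intermediate against immature cells (95% interval -0.83 to 0.12), smaller than the fall of Lama4. The balance of the alpha chains differed by state. Per kilobase of exon, Lama2 was read 1.23 and 1.36 times as high as Lama4 in immature cells, 2.98 and 2.25 times in intermediate, 1.93 and 2.597 times in myelinating and 1.52 and 2.10 times in cycling cells. The ratio was lowest in immature cells on both plates and was not tested as such. Lamb2 (chr9:108479736-108490530), a beta chain found in laminins of synapses and muscle, had 4.75 and 25.8 scaled CPM in cycling, 28.6 and 17.5 in immature, 3.50 and 24.4 in intermediate and 40.4 and 38.0 in myelinating cells. The 2 plates lay far apart in cycling and intermediate cells, and no comparison of Lamb2 passed the test (log2 0.77 for myelinating against immature cells, 95% interval -1.47 to 2.999). A Lamb2 read was found in 31.5% and 35.4% of myelinating cells against 17.9% and 13.9% of immature cells. In cells thinned to 100000 reads each these shares were 27.4% and 31.0% against 10.9% and 11.97%.

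The remaining laminin chains were rare or absent. The alpha chains Lama5 and Lama1 had reads in 24 and 17 of 655 cells. They had 0 to 9.64 and 0 to 11.5 scaled CPM over the 8 sums. Lama5 was read in 15 of 221 myelinating (6.79%), 4 of 149 intermediate (2.68%), 4 of 228 immature (1.75%) and 1 of 57 cycling cells. Its sums were highest in myelinating cells (7.62 and 9.64 scaled CPM), against 0.232 and 2.49 in immature cells. No comparison of Lama5 passed the test (adjusted p = 0.725 for myelinating against immature cells). Lamb3 had 4 reads, all in 1 cell. Lama3 and Lamc3 had none.

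Of the receptors for laminin, Itga6 and Itgb1 were read in most cells of every state. Itga6 (chr2:71745616-71858416), which pairs with beta1 or beta4 to bind laminin, had 525 and 554 scaled CPM in cycling, 370 and 451 in immature, 301 and 416 in intermediate and 564 and 494 in myelinating cells. The intermediate sums were the lowest on each plate, but overlapped with the immature sums across plates. Its log2 difference against immature cells was 0.40 (95% interval -0.05 to 0.84) in cycling, -0.19 (-0.64 to 0.25) in intermediate and 0.37 (-0.08 to 0.81) in myelinating cells. Itgb1 (chr8:128685654-128733200), the common beta chain, had 163 and 178 scaled CPM in cycling, 213 and 147 in immature, 129 and 121 in intermediate and 178 and 147 in myelinating cells. The intermediate sums of Itgb1 lay below those of every other state. None of the comparisons of Itgb1 passed the test. Its log2 difference against immature cells was -0.52 (95% interval -1.07 to 0.02) in intermediate and -0.15 (-0.69 to 0.40) in myelinating cells.

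Itgb4 and Itga7, the more selective laminin receptor chains, were read in fewer cells. Itgb4 (chr11:115974709-116008412), the partner of alpha6 in mature myelinating cells and in hemidesmosomes, had 54.0 and 88.7 scaled CPM in cycling, 63.7 and 58.3 in immature, 34.7 and 47.3 in intermediate and 50.4 and 39.6 in myelinating cells. A read of Itgb4 was found in 285 of 655 cells (43.5%). The log2 difference of myelinating against immature cells was -0.44 (95% interval -1.28 to 0.40, adjusted p = 0.681). Itga7 (chr10:128933818-128958282), an alpha chain of beta1, had 63.1 and 42.2 scaled CPM in cycling, 48.7 and 28.8 in immature, 11.3 and 37.3 in intermediate and 19.9 and 27.3 in myelinating cells. The sums of cycling cells lay above those of intermediate and myelinating cells and overlapped those of immature cells, with a log2 difference of -0.72 (95% interval -2.10 to 0.67) between myelinating and immature cells.

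Larger differences lay in integrins that bind other ligands. Itgb3 (chr11:104608000-104670476), the beta chain of receptors for vitronectin, osteopontin and other proteins, had 114 and 131 scaled CPM in cycling, 105 and 90.4 in immature, 20.7 and 26.9 in intermediate and 1.09 and 9.16 in myelinating cells. The 4 states were ordered without overlap between them, on each plate, from cycling to myelinating. Itgb3 fell by 4.26 on the log2 scale from immature (97.7 ± 10.3, n = 2) to myelinating cells (5.12 ± 5.71, n = 2), which is 19.1-fold lower (SE 0.84, adjusted p = 0.0205, lower on 2 of 2 plates). The call was lost with a Pmp22 limit of 40000 CPM (adjusted p = 0.109) and held in 14 of 15 alternatives, with adjusted p from 1.6e-07 to 0.109. For the steps between, the log2 differences of -2.04 (intermediate against immature, 95% interval -3.77 to -0.31) and -2.22 (myelinating against intermediate, -3.96 to -0.47) had adjusted p of 0.339 and 0.378. DESeq2 gave 0.0756 and 0.0591 for these steps, over ranges of 0.00973 to 0.520 and 0.00754 to 0.751 in the alternatives.

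The share of cells with an Itgb3 read followed the same order. It was 65.6% and 72.0% of cycling, 37.7% and 51.6% of immature, 20.3% and 37.1% of intermediate and 10.2% and 9.7% of myelinating cells on plates 1 and 2. Thinned to 100000 reads, the shares were 64.5% and 70.8%, 36.6% and 47.0%, 16.7% and 33.3%, and 4.72% and 7.08%, so the order was there at equal depth. Of the 158 cells with 5 or more Itgb3 reads, 92 met the list of Schwann cell genes, 6 the fibroblast list and 0 the endothelial, pericyte, immune, perineurial and platelet lists.

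**Figure D2:**
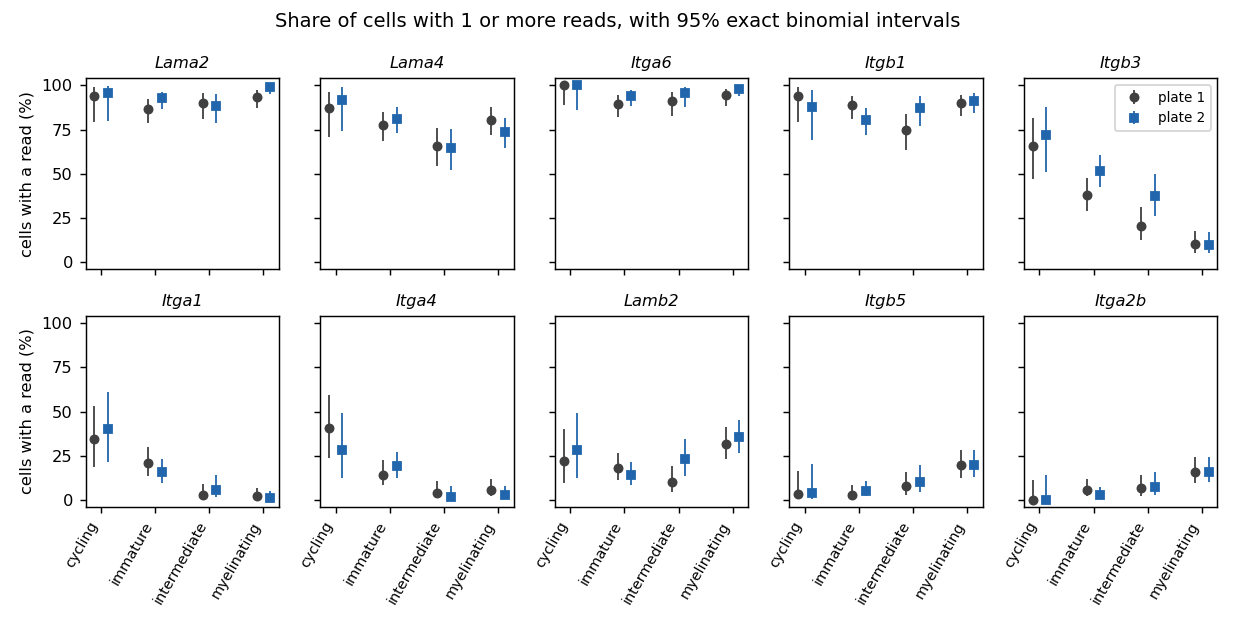
Share of cells with 1 or more reads (vertical axis, percent) of 10 laminin and integrin genes by state, with 95% exact Clopper-Pearson intervals. Circles are plate 1 and squares plate 2. Itgb3, Itga1 and Itga4 have their lowest shares in intermediate or myelinating cells, and Lamb2, Itgb5 and Itga2b their highest in myelinating cells.

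Itga1 and Itga4 were read in few cells, and in larger shares of cycling and immature cells than of the other states. Itga4 (chr2:79255426-79333123), which pairs with beta1 to bind fibronectin and VCAM1, had 52.5 and 23.95 scaled CPM in cycling, 34.6 and 24.7 in immature, 0.128 and 0.0234 in intermediate and 7.95 and 0.294 in myelinating cells. The intermediate sums rested on 6 and 1 reads, against 2083 and 1646 in immature cells. From immature to intermediate cells Itga4 fell by 8.55 on the fitted log2 scale (SE 1.74, adjusted p = 0.0457, lower on 2 of 2 plates), a size that depends on the prior count of the fit. With 0.5 CPM added, the log2 ratios within plates 1 and 2 were -5.80 and -5.59. The call was lost with a Ncmap limit of 5 CPM, at which the fitted log2 change was -3.88 (adjusted p = 0.469) and 9 cells lay between that limit and the one used. It was also lost with Pmp22 limits of 20000 CPM (adjusted p = 0.0619) and 40000 CPM (adjusted p = 0.202), within a range of 8.49e-09 to 0.469 over 15 alternatives. Against immature cells the myelinating cells had a log2 difference of -2.85 (95% interval -5.80 to 0.11, adjusted p = 0.329). Against intermediate cells their fitted log2 difference was 5.70 (95% interval 2.16 to 9.24, adjusted p = 0.205 with edgeR). DESeq2 gave an adjusted p of 0.000641 and edgeR without the filter 0.00209. With 0.5 CPM added, the log2 ratios within plates 1 and 2 were 3.75 and 0.60 and lay far apart. In the myelinating sum of plate 1, 1 cell held 64.6% of the Itga4 reads.

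An Itga4 read was present in 20 of 57 cycling (35.1%), 38 of 228 immature (16.7%), 4 of 149 intermediate (2.68%) and 9 of 221 myelinating cells (4.07%). Its exons share 1124 bases with those of Cerkl, which had 550 and 271 reads in immature and 0 and 2 in intermediate cells, and without strand in the counts the reads of such stretches cannot be assigned to either gene. In immature cells, Itgb3 was read in 9 of the 38 cells with an Itga4 read (23.7%) and in 94 of the 190 without one (49.5%), at median depths of 471687.5 and 442898.5 reads. In cycling cells it was read in 10 of 20 cells with an Itga4 read and in 29 of 37 without one. These shares describe cells that share their animals and were not tested.

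Itga1 (chr13:114953096-115101964), which pairs with beta1 to bind collagen and laminin, had 41.3 and 74.0 scaled CPM in cycling, 35.3 and 14.1 in immature, 2.44 and 5.14 in intermediate and 1.38 and 0.0134 in myelinating cells. The sums of cycling and immature cells lay above those of the other states without overlap. Its log2 difference of myelinating against immature cells was -5.13 (95% interval -8.59 to -1.68, adjusted p = 0.112), which did not pass the test. In 5 of 15 alternatives it did, DESeq2 among them (adjusted p = 0.000756, range 0.000486 to 0.144). Itga1 was read in 21 of 57 cycling (36.8%), 41 of 228 immature (17.98%), 6 of 149 intermediate (4.03%) and 3 of 221 myelinating cells (1.36%). On plate 1, 1 cell held 34.6% of the reads of Itga1 in immature cells. Its exons share 685 bases with those of Gm49395, a gene inside its span that was also counted.

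**Figure D3:**
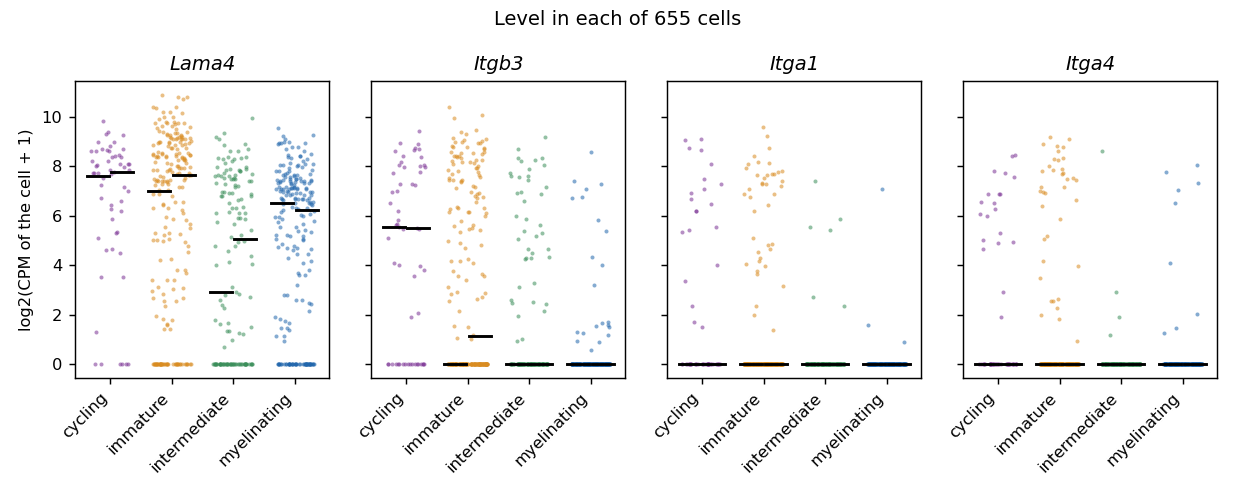
Level of Lama4, Itgb3, Itga1 and Itga4 in each of 655 cells by state, as log2 of the CPM of the cell with 1 added (vertical axis). Points are cells, and black lines mark the median of plate 1 (left) and plate 2 (right). Lama4 is spread over positive and empty cells in every state, while nearly all cells of the intermediate and myelinating states have no read of Itga1 and Itga4.

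Itga2, Itgav and Itgb8 showed no difference that passed the test. Itga2 (chr13:114833081-114932100), a collagen receptor chain next to Itga1 on the chromosome, had 42.9 and 48.0 scaled CPM in cycling, 39.5 and 30.4 in immature, 20.7 and 33.1 in intermediate and 25.9 and 8.02 in myelinating cells. Itgav (chr2:83724397-83806916), the partner of beta3, beta5 and beta8, had 22.96 and 14.6 scaled CPM in cycling, 18.1 and 35.5 in immature, 10.9 and 11.2 in intermediate and 11.6 and 28.2 in myelinating cells. Itgb8 (chr12:119158022-119238802), which with alphav binds latent TGF-beta, had 103 and 167 scaled CPM in cycling, 142 and 144 in immature, 169 and 182 in intermediate and 143 and 181 in myelinating cells. Itgb8 therefore stood at similar levels in states in which Itgb3, another partner of alphav, differed widely. Per kilobase of exon, Itgb8 was read 0.72 and 0.85 times as high as Itgb3 in immature cells and 70.2 and 10.6 times as high in myelinating cells.

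Over the tested genes of the families, calls by edgeR were few and all toward lower levels than in immature cells. Of 22 genes, 2 were lower and 0 higher in intermediate than in immature cells (Lama4 and Itga4), where 2.00% of all 13904 genes tested passed (0.985% higher and 1.01% lower). Likewise 2 were lower and 0 higher in myelinating than in immature cells (Lama4 and Itgb3), where 5.14% of all genes passed (2.60% higher and 2.54% lower). With edgeR 0 of 22 passed for cycling against immature cells (2.58% of all genes, 1.29% in each direction), with 1 at an unadjusted p under 0.05 and 1 called by DESeq2. For myelinating against intermediate cells 0 of 22 passed (0.784% of all genes, 0.360% higher and 0.424% lower), with 5 at an unadjusted p under 0.05. DESeq2 called 2 there, Lamc1 and Itga4, both higher in myelinating cells. The median log2 difference of the 22 was 0.14, -0.38, 0.26 and -0.34 for cycling against immature, intermediate against immature, myelinating against intermediate and myelinating against immature cells, beside -0.13, -0.03, 0.00 and -0.04 over all genes. The comparisons share sums, so these values are not independent.

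**Figure D4:**
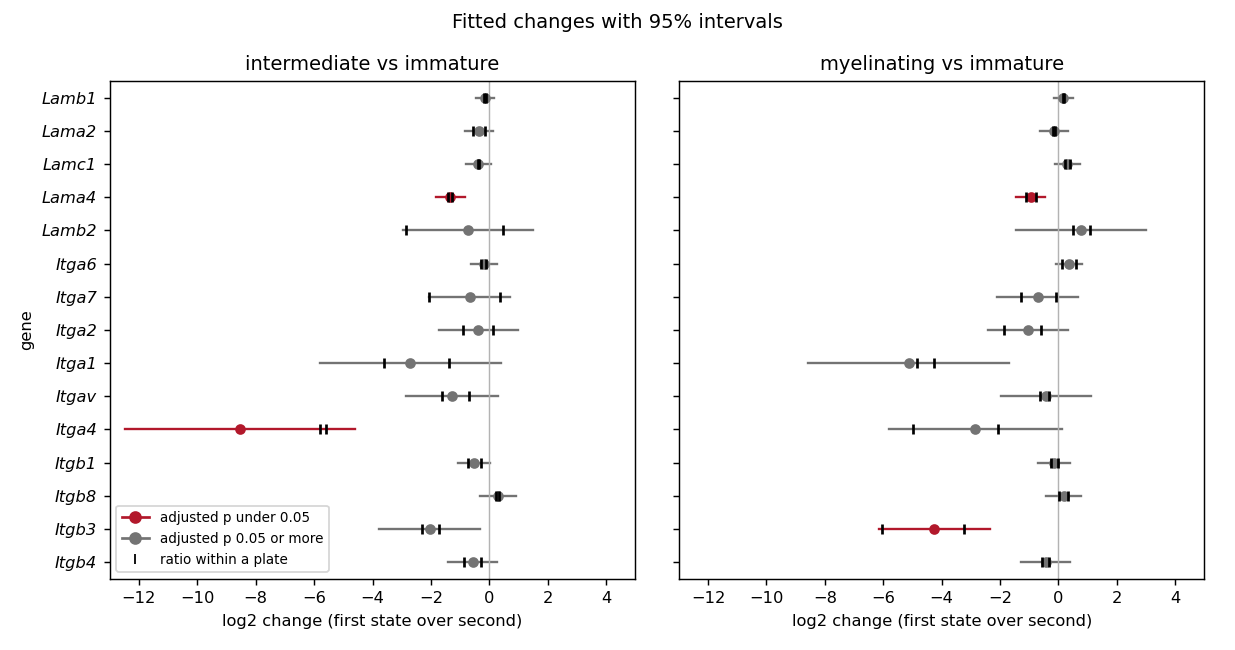
Fitted log2 change (horizontal axis) of 15 laminin and integrin genes for intermediate (left) and myelinating (right) against immature cells. Points are the fit over 2 plates with 95% intervals, black ticks the log2 ratio within each plate with 0.5 CPM added, and red marks an adjusted p under 0.05. Red are Lama4 and Itga4 on the left and Lama4 and Itgb3 on the right.

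The remaining integrin chains had a mean under 10 scaled CPM or no read. Itgb5, a partner of alphav, had 1.39 and 5.95 scaled CPM in cycling, 4.75 and 7.21 in immature, 11.03 and 6.19 in intermediate and 14.3 and 21.7 in myelinating cells. It was read in 19.5% of the 221 myelinating cells and in 3.95% of the 228 immature cells, while its log2 difference of 1.59 (95% interval -0.71 to 3.89) had an adjusted p of 0.524. Itga2b, the platelet chain that pairs with beta3, had 0 reads in 57 cycling cells, which allows a share of up to 5.26%, and was read in 9 immature, 10 intermediate and 35 myelinating cells. Of the platelet list, Pf4, Ppbp and Gp9 were at 0 and Gp1bb had 5 or more reads in 4 cells, and 24 of the 42 cells with 5 or more Itga2b reads met the Schwann cell list. Itgb2, the leukocyte beta chain, was read in 16 cells and Itgae in 11, and of Itga5, the fibronectin receptor chain, reads came from 5 cells, 1 of which held 66.5%. Itga3, Itga9, Itga10 and Itga11 had 3 to 263 reads in all and, with Lamb3, are the 5 genes with a read that were not tested. The leukocyte chains Itgal, Itgam, Itgax and Itgad had no read, nor had Itga8, Itgb6 and Itgb7. Of the 5024 exon bases of Itgam, 3450 are shared with Gm49368, a gene that was also counted. Reads of that stretch may not have been counted to Itgam.

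Chains that form 1 protein were looked for in the same cell, with 5 or more reads of each. The chains of the Lama2 trimer were together in 465 of 655 cells. Their share was 67.4% on plate 1 (95% exact interval 62.0 to 72.5) and 74.5% on plate 2 (69.5 to 79.2). Those of the Lama4 trimer were together in 360 cells, at 55.1% (49.5 to 60.6) and 54.8% (49.3 to 60.3). By state, the Lama4 trimer was complete in 71.9% and 72.0% of cycling and 52.8% and 54.1% of immature cells of plates 1 and 2. It was complete in 39.2% and 48.6% of intermediate and 63.9% and 55.8% of myelinating cells. Lama2 was present in 91.6% of the 442 cells with Lama4, so that most cells with Lama4 held both alpha chains. Among all 655 cells, Lama2 was present in 579. For the laminin receptors, Itga6 and Itgb1 were together in 470 cells (71.8%) and Itga6 and Itgb4 in 210 (32.1%). The latter is 94.2% of the 223 cells with Itgb4, and Itga6 was present in 607 of all 655 cells.

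The alpha chains of Itga1 and Itga4 were found with Itgb1 mainly in cycling and immature cells. Itga1 and Itgb1 were together in 29.8% of cycling and 9.65% of immature cells, against 2.01% of intermediate and 0.452% of myelinating cells. For Itga4 and Itgb1 the shares were 29.8%, 8.33%, 0% (0 of 149, which allows up to 2.01%) and 1.81%. Itga2 and Itgb1, also a collagen receptor, were together in 22.8% of cycling, 9.65% of immature, 7.38% of intermediate and 9.05% of myelinating cells. Itgav and Itgb8 were together in 19.3% of cycling, 18.4% of immature, 12.8% of intermediate and 18.6% of myelinating cells. Itgav and Itgb3 were together in 15.8%, 10.5% and 4.70% of cycling, immature and intermediate cells and in 0 of 221 myelinating cells, which allows a share of up to 1.36%. These shares are of single cells pooled over the plates, depend on depth, and were not tested.

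Per cell, the number of different chains was highest in cycling cells. Thinned to 100000 reads, a cycling cell held on average 2.58 and 2.5 integrin alpha chains on plates 1 and 2, an immature cell 1.90 and 1.93, an intermediate cell 1.44 and 1.70 and a myelinating cell 1.67 and 1.76. The order of cycling and immature cells above the other states was there on each plate. For beta chains the thinned means were 2.65 and 2.88, 2.27 and 2.47, 1.94 and 2.46, and 2.18 and 2.26. Without thinning, the median number of detected genes of any kind also differed by state. It was 4023.5 and 3989 in cycling, 2925 and 3188.5 in immature, 3291 and 3700 in intermediate and 3723.5 and 4056 in myelinating cells. The part of this difference in the number of chains was not tested.

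Genes that act with the 2 families were counted in 3 lists. Of 29 genes of the integrin adhesion machinery 26 were tested, and 1 (3.85%) rose in intermediate against immature cells, where 2.00% of all genes passed. In myelinating against immature cells 2 rose and 1 fell (11.5%), where 5.14% of all genes passed. Fyn, a kinase of the Src family that acts below integrins in myelin-forming oligodendrocytes, had 47.9 and 57.1 scaled CPM in immature, 190 and 198 in intermediate and 136 and 138 in myelinating cells. Its log2 rise was 1.88 (SE 0.29, adjusted p = 0.0150) in intermediate and 1.39 (SE 0.29, adjusted p = 0.0261) in myelinating cells. Cdc42, a small GTPase needed in Schwann cells, rose by 0.84 (adjusted p = 0.00703) and Rsu1, a partner of the kinase complex at integrin tails, fell by 1.11 (adjusted p = 0.0329) in myelinating against immature cells. The median of the 26 was -0.22 in intermediate and -0.07 in myelinating against immature cells, and 0 were called for cycling against immature and myelinating against intermediate cells, with 3 and 4 at an unadjusted p under 0.05 and 2 and 3 called by DESeq2.

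The basement membrane and ligand list had 22 genes, 17 of them tested. In myelinating against immature cells 1 rose and 2 fell (17.6%, beside 5.14% of all genes). Col4a2, a chain of collagen IV, which lies beside laminin in the basal lamina, had 167 and 156 scaled CPM in immature and 305 and 397 in myelinating cells and rose by 1.12 on the log2 scale (SE 0.21, adjusted p = 0.0163). Thbs2, a thrombospondin, had 218 and 251 scaled CPM in immature, 12.6 and 47.5 in intermediate and 12.4 and 5.92 in myelinating cells and fell by 4.68 (SE 0.69, adjusted p = 0.00491). Col18a1, a collagen of basement membranes, fell by 2.65 (adjusted p = 0.0119), and by 2.68 from intermediate to myelinating cells (adjusted p = 0.0414), as the 1 call of this list in that comparison (5.88%, beside 0.784% of all genes). Thbs2 and Col18a1, at means under 100 scaled CPM, were named after their values were seen. In intermediate and in cycling against immature cells 0 of the 17 were called by edgeR, with 4 and 1 at an unadjusted p under 0.05 and 3 and 0 called by DESeq2.

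All 16 genes of the list of other laminin receptors and membrane partners were tested, and 7 of them (43.8%) passed in myelinating against immature cells, 5 higher and 2 lower, beside 5.14% of all genes (2.60% higher and 2.54% lower). In intermediate against immature cells 2 of the 16 were higher (12.5%, beside 2.00% of all genes). Dag1, the dystroglycan gene, whose protein is a laminin receptor apart from integrins, had 145 and 165 scaled CPM in immature, 308 and 418 in intermediate and 443 and 460 in myelinating cells. Dag1 rose by 1.23 on the log2 scale in intermediate (SE 0.22, adjusted p = 0.0281) and by 1.54 in myelinating against immature cells (SE 0.22, adjusted p = 0.00437). The tetraspanin Cd9, a membrane partner of integrins, rose by 0.89 in intermediate (adjusted p = 0.00846) and by 3.001 in myelinating against immature cells (adjusted p = 7.48e-06), and the tetraspanin Cd82 rose by 1.74 in the latter (adjusted p = 0.00305). Sdc4, a syndecan of focal adhesions, fell by 1.39 there (adjusted p = 0.0265). The other genes called in that comparison were Plec and Cd47, which were higher, and Rpsa, which was lower, and Rpsa has near-identical copies elsewhere in the genome between which reads can be split. From intermediate to myelinating cells Cd9 rose and Rpsa fell (12.5%, beside 0.784% of all genes), and for cycling against immature cells 0 of the 16 were called, with 3 at an unadjusted p under 0.05 and 1 called by DESeq2.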

How the data were processed

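The deposited file held raw read counts per gene and well, made by the authors with STAR 2.6.1c and featureCounts per the labels, on GRCm38.p5 per the submitters' notes. The study's methods name a human build for this step, whereas the gene identifiers are of mouse. Of 25700 genes, 25664 matched GENCODE vM21 (GRCm38), which gave symbols, coordinates and exon lengths. The laminin and integrin genes, the partner and marker lists and the rule for states were chosen with earlier results of these data known. Some genes of these lists are not reported here, and the Schwann cell list was counted without them.

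Counts were summed per plate and state (8 sums, 13925435 to 98479212 reads), and genes were filtered with filterByExpr, scaled by TMM (factors 0.851 to 1.117) and tested with the quasi-likelihood test of edgeR 4.0.16 in R 4.3.3 on state alone, with 4 residual degrees of freedom. P-values are two-sided and were adjusted by Benjamini-Hochberg over all 13904 genes, with a threshold of 0.05. They measure the spread between 2 plates of pooled animals. Standard errors and intervals were derived from the test statistic. A plate block was the alternative, since sums of a plate share their animals. Deviations of the sums of a plate from their state means correlated at -0.022 to 0.187 over 6 pairs of states and 1976 genes of at least 100 CPM.

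Genes with a mean of 10 scaled CPM were named with all values. From the partner lists, called genes with a mean of 100 scaled CPM were named, at most the 4 largest changes a list. Shares of cells carry exact Clopper-Pearson intervals. Limits for 0 use 3 counts. Reads carry no molecular identifiers, so intervals and limits cover counting error only. Depth was also equalised by thinning cells to 100000 reads. Versions were DESeq2 1.42.0 and Python 3.11.15. Other alternatives changed the gene minimum (2500 or 1000), the limits of Ncmap and Pmp22, the cycling rule (2 genes), corner wells, size factors, the filter, the 20 genes of most reads and, added after seeing the data, columns 8 and 16.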

Additional observations from a re-analysis of the deposited data

How the results depend on the processing

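Of 60 log2 changes of the 15 named genes, the called ones kept their direction in all 15 alternatives with a test. Counts of laminin and integrin genes called moved with the state limits and the tool. For cycling against immature cells 0 became 1 with no filter and with DESeq2 (Itga2b in each). For intermediate against immature cells 2 became 1 with a Ncmap limit of 5 CPM and with Pmp22 limits of 20000 and 40000 CPM (Itga4 lost in each), and 3 with no filter (Itgb3 gained). For myelinating against intermediate cells 0 became 1 with the Pmp22 limit of 40000 CPM (Itga1, lower). There were 2 with no filter (Itgb3 lower and Itga4 higher) and 2 with DESeq2 (Lamc1 and Itga4, both higher). For myelinating against immature cells 2 became 1 with the Ncmap limit of 5 CPM (Lama4 lost), 1 with the Pmp22 limit of 40000 CPM (Lama4 and Itgb3 lost, Itga1 gained), 3 with no filter and with thinned cells (Itga1 gained in each) and 4 with DESeq2. With the Pmp22 limit of 20000 CPM there were again 2, with Itga1 in place of Lama4. The cause of these differences was not tested. For the partner genes, 0 in cycling against immature cells became 2 with no filter and 3 with DESeq2. The 3 of intermediate against immature cells became 7 with the Pmp22 limit of 40000 CPM, 5 with cycling cells taken from 2 genes, 11 with no filter, 12 with DESeq2 and 8 with thinned cells. The 3 of myelinating against intermediate cells became 8 and 12 with no filter and DESeq2, and the 13 of myelinating against immature cells 20 with DESeq2.

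With the replicate block the counts of laminin and integrin genes called were 0, 2, 0 and 2 in the 4 comparisons, and no call of them changed. For the partner genes they were 0, 4, 3 and 13. Leaving out a plate left no residual degrees of freedom, so calls could not be given. The log2 ratio within plates 1 and 2 then was -1.41 and -1.27 for Lama4 in intermediate cells, -0.77 and -1.12 for Lama4 in myelinating cells, and -6.06 and -3.24 for Itgb3 in myelinating cells, against immature cells. Another scaling moved the median of all genes by at most 0.079.

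Some uncalled log2 changes changed sign, all of at most 0.44 in size. For cycling against immature cells, Lamb1 was -0.019, Itgb1 0.030, Itgb4 -0.25 and Itga7 -0.10 in thinned cells, Itgb1 was 0.18 with a minimum of 1000 genes, 0.0016 with DESeq2 size factors and 0.0013 with DESeq2, and Itgb8 was 0.026 with cycling cells taken from 2 genes and 4.13e-05 with DESeq2 size factors. For myelinating against intermediate cells, Itgb8 was 0.025 with the Pmp22 limit of 20000 CPM, and Itga7 was 0.015 with the Ncmap limit of 5 CPM, 0.42 with the Pmp22 limit of 40000 CPM and 0.22 in thinned cells.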
